A study of Rattus norvegicus with 12 samples.

Results

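DNA replication and nucleotide synthesis were followed here through 45 genes in H9C2 cells, an established rat line of heart-derived myoblasts that keeps dividing in culture. The members were chosen by name from the gene count table, as genes for origin licensing, the replicative helicase, DNA polymerases, clamp loading, Okazaki fragment processing and dNTP synthesis. All 45 names were found among the 16002 gene IDs kept, and all 45 passed the filter on low counts that left 11398 genes for testing. Poly(A)-selected RNA was sequenced from 3 groups of 4 libraries. In the H/R + LITAF group (LITAF cells below), cells carrying a lentiviral vector that overexpresses LITAF, an endosomal and lysosomal membrane protein, went through 8 h of hypoxia at 1% oxygen and then 2 h of reoxygenation. In the H/R group (empty-vector cells), cells carrying an empty lentiviral vector went through the same hypoxia and reoxygenation. Control cells (normoxic cells) are labelled wild type and had neither a vector nor hypoxia. All groups are 1 cell line grown in DMEM with serum and carry the same batch label. Since the normoxic cells had no vector, H/R and the vector cannot be told apart in any comparison with them. The replicates are labelled biological, but nothing says that every library had its own culture, so the p-values below measure the library spread, which may be partly technical. The stated aim is the role of LITAF in H/R injury of these cells.

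Total counts ran from 17.2 to 18.4 M reads in LITAF cells, 16.9 to 18.1 M in empty-vector cells and 19.2 to 20.7 M in normoxic cells, so counting error was small for most members. Levels are counts per M reads after TMM scaling (CPM), which are not corrected for transcript length. They are compared here for the same gene, the same sum of genes or the same ratio of genes between libraries. Fold changes are log2 ± SE from 1 edgeR quasi-likelihood fit of all 12 libraries (n = 4 a group), with p-values adjusted over all genes tested and a threshold of 0.05. Litaf, the gene on the vector, was at 2691, 2008, 2532 and 2120.4 CPM in LITAF cells, 549, 619, 573 and 598 CPM in empty-vector cells and 458, 485, 491 and 456 CPM in normoxic cells. Of the marker genes, the myoblast genes Myod1, Myog, Des and Cdh15, the cardiac genes Nkx2-5, Gata4 and Tnnt2 and the fibroblast genes Col1a1, Col1a2, Pdgfrb and Thy1 were above 1 CPM in every library. No endothelial or leukocyte marker was. The muscle regulators Myf5 and Myf6, the muscle receptor gene Chrna1, the cardiac genes Tbx5, Myh6, Myh7, Tnni3, Actn2 and Nppa and the fibroblast genes Pdgfra and Dcn, were under 1 CPM in every library. Summed levels of the skeletal myoblast markers were 501 to 565 CPM in LITAF cells, 507 to 641 CPM in empty-vector cells and 2195 to 6451 CPM in normoxic cells, where Myog made up most of the normoxic sum. Those of the cardiac markers were 164 to 222 CPM in LITAF cells, 80.4 to 110.2 CPM in empty-vector cells and 208 to 447 CPM in normoxic cells. Those of the fibroblast markers were 26570.4 to 34609 CPM in LITAF cells, 22716 to 25693 CPM in empty-vector cells and 53301 to 70498 CPM in normoxic cells. Tnnt2 made up most of each cardiac sum, and Col1a1 and Col1a2 nearly all of each fibroblast sum. The markers did not all move together. In empty-vector against normoxic cells Des (log2 1.81 ± 0.14) and Nkx2-5 (log2 1.27 ± 0.17) rose. Myod1, Myog, Cdh15, Gata4, Tnnt2, Col1a1, Col1a2 and Pdgfrb fell in that comparison. Their falls ran from log2 -0.26 ± 0.11 in Cdh15 to log2 -8.10 ± 0.58 in Myog. In LITAF against empty-vector cells Tnnt2 (log2 1.32 ± 0.23), Pdgfrb (log2 0.42 ± 0.11) and the low Chrna1 (log2 2.12 ± 0.42) rose, and no tested marker fell. Endothelial sums did not pass 1.39 CPM and leukocyte sums 1.67 CPM in any library. The part of these markers in the results below was not tested.

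DNA replication starts with licensing, in which the origin recognition complex, CDC6 and CDT1 load the MCM helicase onto DNA while geminin holds CDT1 in check. CDC45 and the GINS complex then activate the helicase, DNA polymerase alpha with primase lays primers, and polymerases epsilon and delta extend them on the sliding clamp PCNA. Ribonucleotide reductase, thymidylate synthase and thymidine kinase supply dNTPs, and many of these genes are switched on by E2F transcription factors as cycling cells enter S phase. Heart muscle cells stop replicating their DNA soon after birth, whereas H9C2 myoblasts cycle in serum.

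The comparison of empty-vector cells with normoxic cells asks what H/R together with an empty vector did to these genes. Of the 45 members, 40 fell and none rose, and 39 were lower in every empty-vector library than in every normoxic library. The 40 make up 88.9% of the members, beside 31.8% of all genes tested that were called lower and 31.8% that were called higher. The 39 make up 86.7%, beside 28.3% of all genes tested. The members' median was log2 -1.49, or 35.6% of the normoxic level, and the median of all genes tested was log2 0.01. A fall of log2 2 or more was called in 13 members (28.9%), beside 3.84% of all genes tested. The largest falls were in Dna2, Tyms and Rrm2, which stood at log2 -4.03 ± 0.14, -3.82 ± 0.15 and -3.25 ± 0.11. The 5 members that did not pass were Orc2, Orc3, Orc5, Gins4 and Fen1. In bulk RNA, fewer cells in S phase and less of these RNAs in each cell cannot be told apart.

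Together the 45 members took 3383, 3757, 3613 and 3698 CPM of the LITAF libraries, 4236, 4173, 4027 and 4227 CPM of the empty-vector libraries and 16575, 18084, 16887 and 17294 CPM of the normoxic libraries. On average this is 0.361% of scaled reads in LITAF cells, 0.417% in empty-vector cells and 1.72% in normoxic cells. The ranges of the 3 groups did not overlap. The largest parts of the normoxic sum came from Mcm6, Rrm2 and Mcm5, with means of 3300.0, 3155 and 1309 CPM.

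Every comparison with normoxic cells has limits that lie in the deposited control values. Values that are not whole numbers made up 11.9 to 12.6% of the LITAF columns, 11.4 to 12.4% of the empty-vector columns and 2.84 to 3.4% of the normoxic columns, and a difference in how the normoxic values were made cannot be told apart from the response. Members also varied more among the normoxic libraries. Their median coefficient of variation was 9.89% in LITAF cells, 5.69% in empty-vector cells and 15.6% in normoxic cells. Genes with a mean of at least 10 CPM had medians of 10.6% in LITAF cells, 6.19% in empty-vector cells and 14.9% in normoxic cells. Empty-vector and normoxic libraries of the same number deviated together across the 45 members (correlations of 0.27 to 0.68), so the 2 groups cannot be treated as fully independent. With that number as a block in a fit of the 2 groups, 41 members fell, the added one being Orc3 (log2 -0.32, edgeR adjusted p = 0.0206).

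**Figure D1:**
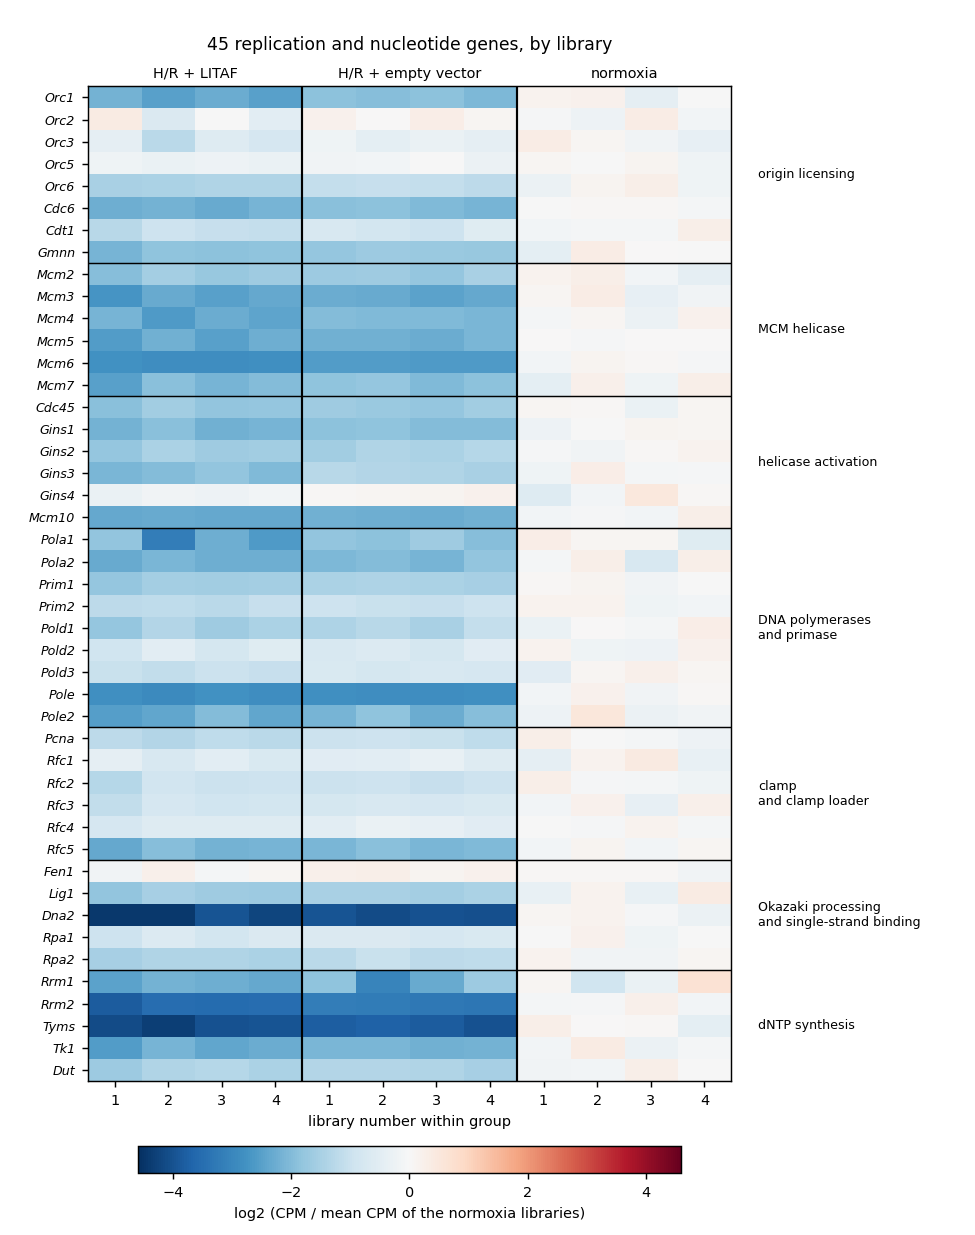
Level of each of the 45 members in each of the 12 libraries, as log2 of CPM over the mean CPM of the normoxic libraries, with rows grouped by role and columns by group and library number. Blue is lower and red is higher: Dna2, Tyms and Rrm2 are the darkest rows in both H/R groups, and Orc2, Orc5, Gins4 and Fen1 are close to white.

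Promoters of the members were read from RefSeq (GRCr8), from 250 bases before to 50 bases after each annotated gene start. Entries were matched by symbol for 40 of the 45 members; Orc1, Cdc6, Mcm4, Gins4 and Rrm2 had none. An E2F-type word was searched for on both strands, spelled TTTCCCGC, TTTCGCGC, TTTGCCGC or TTTGGCGC. It was present in 20 of the 40 members (50%), beside 2.14% of all 33469 promoters and 4.42% of the 9395 tested genes with a promoter entry. The members' promoters were not richer in G and C than those of tested genes, with medians of 60% and 61%. They were richer than all promoters, whose median was 51.7%. Of the 29 matches, 4 pairs in Gins1, Mcm2, Mcm5 and Mcm6 overlapped on opposite strands, which leaves 25 separate sites, and 1 match overlapped a CCAAT word. In all, 20 of the 29 matches began within 60 bases of the gene start. CCAAT was found in 55.0% of the 40 members and 39.9% of tested genes, and GGGCGG in 65.0% and 63.8%. The words TTTGAA or TTCGAA were in 17.5% and 14.8%, and ACGTG, the core of the hypoxia response element, in 30.0% and 27.1%. Over all promoters the shares were 37.5% for CCAAT, 33.1% for GGGCGG, 19.7% for TTTGAA or TTCGAA and 19.3% for ACGTG. The changes of members with and without an E2F-type word overlapped over most of their range, and their difference was not tested. In the 20 with a match, the change of empty-vector against normoxic cells had a median of log2 -1.76 (range -4.03 to -0.14). In the 20 without, the median was log2 -1.23 (range -2.23 to 0.20). In each set 18 of 20 fell, beside 31.8% of all genes tested that were called lower. A match describes letters in these windows and says nothing of a bound factor.

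Shown are the 4 members with an E2F-type word that fell most in empty-vector cells, from 150 bases before to 20 bases after the gene start on the gene's strand, with the E2F-type word on either strand in capitals. Dna2 lies at chr20:25689266-25689435 (minus strand), Tyms at chr9:120776064-120776233 (minus strand), Pole at chr12:52053643-52053812 (minus strand) and Mcm6 at chr13:42404333-42404502 (minus strand).
Dna2: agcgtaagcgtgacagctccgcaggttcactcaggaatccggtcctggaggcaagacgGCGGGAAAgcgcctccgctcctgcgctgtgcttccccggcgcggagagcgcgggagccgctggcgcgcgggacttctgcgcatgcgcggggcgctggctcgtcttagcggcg
Tyms: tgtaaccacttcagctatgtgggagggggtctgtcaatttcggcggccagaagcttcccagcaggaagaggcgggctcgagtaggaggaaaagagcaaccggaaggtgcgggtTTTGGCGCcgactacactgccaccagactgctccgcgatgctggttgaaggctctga
Pole: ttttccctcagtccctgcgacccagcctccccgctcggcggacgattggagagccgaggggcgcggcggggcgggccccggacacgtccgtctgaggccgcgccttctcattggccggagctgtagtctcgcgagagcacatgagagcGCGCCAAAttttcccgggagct
Mcm6: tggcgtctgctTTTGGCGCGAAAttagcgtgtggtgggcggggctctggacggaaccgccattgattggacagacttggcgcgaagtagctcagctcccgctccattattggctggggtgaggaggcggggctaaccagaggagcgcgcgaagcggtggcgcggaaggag
The Mcm6 capitals hold 2 overlapping words, 1 on each strand, and the other 3 promoters hold 1 word each. In Pole the word spans the gene start.

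**Figure D2:**
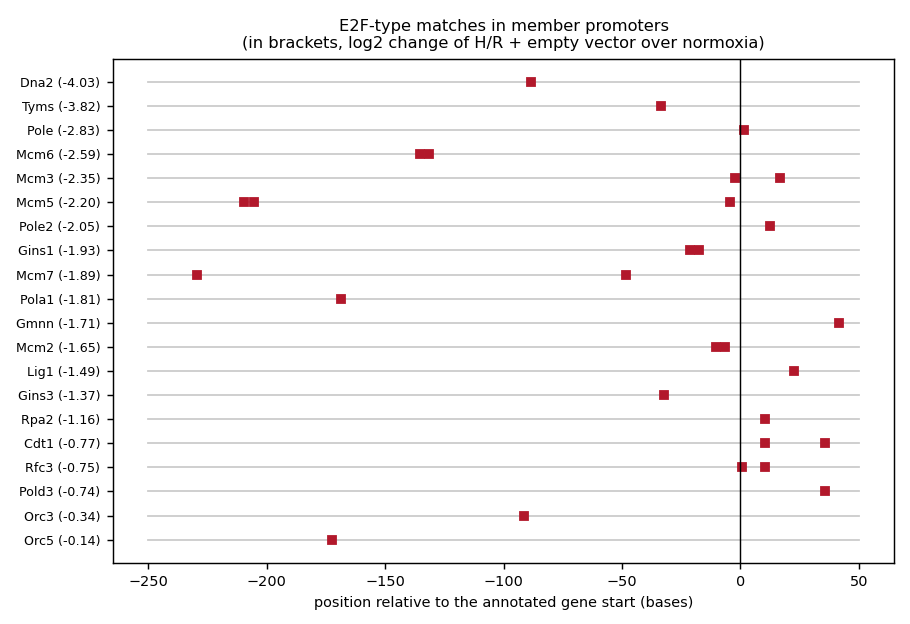
Positions of the E2F-type word in the 20 members that hold it, as distance in bases from the annotated gene start (vertical line), with grey lines for the 300 bases searched. Rows run from the largest fall in empty-vector against normoxic cells (Dna2, log2 -4.03) to the smallest change (Orc5, log2 -0.14). Of the 29 matches 20 begin within 60 bases of the start. The words of Dna2, Mcm6, Pola1, Orc3 and Orc5 lie further upstream, as do some of those of Mcm5 and Mcm7.

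Among the licensing genes, 5 of 8 fell in empty-vector cells and none rose (median log2 -0.94). The share to set beside this count and those of the role groups below is the 31.8% of all genes tested called lower. The 3 licensing genes that did not pass were all subunits of the origin recognition complex. Orc1, the cell cycle-regulated large subunit of that complex, was at 22.8, 17.9, 20.9 and 18.2 CPM in LITAF cells, 27.5, 26.5, 27.3 and 24.5 CPM in empty-vector cells and 113, 118, 77.5 and 101 CPM in normoxic cells. The 3 groups did not overlap. Against normoxic cells the empty-vector cells were 3.86-fold lower (log2 -1.95 ± 0.13, edgeR adjusted p = 2.70e-09), and LITAF against empty-vector cells stood at log2 -0.41 ± 0.13, edgeR adjusted p = 0.0882, which does not pass. Cdc6, the ATPase that joins the complex to load MCM, had 28.8, 30.4, 27.4 and 30.8 CPM in LITAF cells, 35.7, 36.7, 33.3 and 30.7 CPM in empty-vector cells and 134, 139.9, 142 and 129 CPM in normoxic cells. It fell 3.99-fold against normoxic cells (log2 -2.0 ± 0.10, edgeR adjusted p = 4.76e-11). Orc6, the smallest subunit, fell 2.17-fold (log2 -1.12 ± 0.12, edgeR adjusted p = 4.38e-07).

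Cdt1, which brings MCM to the origin, was measured at 71.7, 88.4, 82.8 and 81.1 CPM in LITAF cells, 103, 96.1, 89.7 and 118 CPM in empty-vector cells and 159, 162, 163 and 208 CPM in normoxic cells. Its fall in empty-vector cells was 1.70-fold (log2 -0.77 ± 0.12, edgeR adjusted p = 2.73e-05). Gmnn, which codes for geminin, the inhibitor of CDT1, had 21, 25.6, 25.1 and 26.1 CPM in LITAF cells, 27.5, 29.6, 28.5 and 28.0 CPM in empty-vector cells and 68.5, 118, 94.0 and 92.1 CPM in normoxic cells, a fall of 3.28-fold against normoxic cells (log2 -1.71 ± 0.14, edgeR adjusted p = 2.36e-08). In both genes the LITAF libraries were all below the empty-vector libraries, yet neither passed that test (edgeR adjusted p = 0.120 for Cdt1 and 0.415 for Gmnn).

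Orc2, Orc3 and Orc5, core subunits of the origin recognition complex, were much closer between groups. For Orc2 the values were 31.1, 15.1, 23.9 and 17.5 CPM in LITAF cells, 27.6, 24.8, 30.2 and 25.7 CPM in empty-vector cells and 23.1, 20.7, 30.8 and 22.1 CPM in normoxic cells, with a change of log2 0.16 ± 0.19, edgeR adjusted p = 0.464 for empty-vector against normoxic cells. For Orc3 they were 11.7, 6.55, 10.1 and 9.04 CPM in LITAF cells, 13.4, 11.3, 12.5 and 11.6 CPM in empty-vector cells and 19.5, 16.5, 13.9 and 11.8 CPM in normoxic cells (log2 -0.34 ± 0.17, edgeR adjusted p = 0.0988 for empty-vector against normoxic cells). Both genes overlapped between empty-vector and normoxic cells. Orc5 had 33.9, 31.2, 32.7 and 31.0 CPM in LITAF cells, 34.3, 35.7, 37.6 and 31.8 CPM in empty-vector cells and 40.8, 37.7, 41.8 and 33.8 CPM in normoxic cells (log2 -0.14 ± 0.10, edgeR adjusted p = 0.218 for empty-vector against normoxic cells), with overlap as well. In LITAF library 2, Orc2 and Orc3 were at their lowest.

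All 6 MCM genes, whose products form the ring of the replicative helicase, fell in empty-vector cells, with log2 changes of -1.65 to -2.59. Mcm6 (ENSRNOG00000003703) was measured at 476, 453, 455 and 469 CPM in LITAF cells, 554, 558, 540.0 and 548 CPM in empty-vector cells and 3031, 3599, 3426 and 3144 CPM in normoxic cells. The groups were far apart, with a 6.00-fold fall in empty-vector cells (log2 -2.59 ± 0.09, edgeR adjusted p = 2.51e-12). The LITAF libraries were all below the empty-vector libraries, at log2 -0.25 ± 0.08, edgeR adjusted p = 0.10. Mcm3 was at 82.8, 109, 94.6 and 105 CPM in LITAF cells, 110.2, 108, 98.4 and 106 CPM in empty-vector cells and 580.5, 676, 411 and 487 CPM in normoxic cells, a 5.09-fold fall in empty-vector cells (log2 -2.35 ± 0.14, edgeR adjusted p = 6.93e-10). Mcm5 had 223, 281, 231 and 274 CPM in LITAF cells, 281, 282, 269 and 307 CPM in empty-vector cells and 1325, 1256, 1322 and 1334 CPM in normoxic cells, and was 4.59-fold lower in empty-vector cells (log2 -2.20 ± 0.10, edgeR adjusted p = 2.78e-11). In Mcm3 and Mcm5 both H/R groups overlapped and lay below all normoxic libraries. Mcm4, Mcm7 and Mcm2 were 4.12-fold, 3.70-fold and 3.14-fold lower than in normoxic cells.

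Genes for helicase activation fell in 5 of 6 members. Mcm10, which helps to start the activated helicase, had 33.8, 34.9, 34.0 and 33.5 CPM in LITAF cells, 37.3, 36.3, 35.6 and 37.6 CPM in empty-vector cells and 156, 166, 158 and 208 CPM in normoxic cells, and the fall in empty-vector cells was 4.68-fold (log2 -2.23 ± 0.11, edgeR adjusted p = 4.36e-11). Cdc45, the helicase cofactor, was 3.20-fold lower (log2 -1.68 ± 0.11, edgeR adjusted p = 2.62e-09). The 4 GINS subunits form 1 complex, yet their RNAs did not share 1 pattern. Gins1 was at 16.4, 19.9, 16.2 and 17.1 CPM in LITAF cells, 20, 20.7, 18.7 and 18.9 CPM in empty-vector cells and 63.0, 74.2, 81.3 and 80.2 CPM in normoxic cells (log2 -1.93 ± 0.11, edgeR adjusted p = 4.22e-10 for empty-vector against normoxic cells), and Gins2 changed by log2 -1.43 ± 0.11. Gins4 had 15.4, 17.2, 16.5 and 17.5 CPM in LITAF cells, 19.9, 20.4, 20.9 and 22.0 CPM in empty-vector cells and 12.6, 17.7, 26.8 and 19.7 CPM in normoxic cells. The normoxic libraries of Gins4 spanned the empty-vector libraries (log2 0.11 ± 0.17, edgeR adjusted p = 0.566), and its LITAF libraries were all below the empty-vector libraries (log2 -0.32 ± 0.17, edgeR adjusted p = 0.296).

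Gins3 (ENSRNOG00000011863), the remaining GINS subunit, was the only member called between LITAF and empty-vector cells in the fit of all libraries. It was at 15.7, 16.9, 18.9 and 16.4 CPM in LITAF cells, 27.4, 26.4, 25.6 and 23.7 CPM in empty-vector cells and 57.9, 81.8, 62.2 and 65.0 CPM in normoxic cells. The 3 groups did not overlap. LITAF cells had 65.8% of the empty-vector level (log2 -0.60 ± 0.12, edgeR adjusted p = 0.00824), and empty-vector cells were 2.59-fold below normoxic cells (log2 -1.37 ± 0.12, edgeR adjusted p = 4.35e-08). Under all 15 alternatives fitted, Gins3 was called lower in LITAF cells, at log2 -0.66 to -0.55 with adjusted p of 2.69e-04 to 0.0390 by edgeR or DESeq2. Its promoter held 1 E2F-type word.

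**Figure D3:**
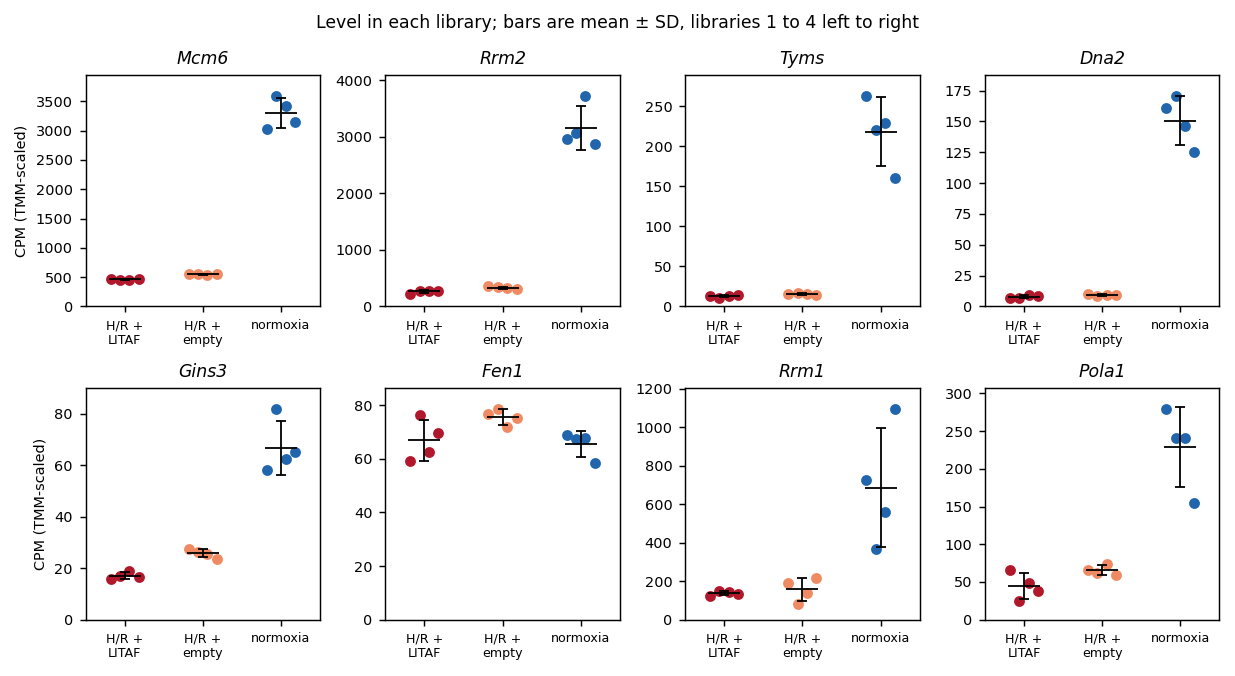
CPM of 8 members in each library (points, libraries 1 to 4 from left to right) with the mean and SD of each group, on linear axes that start at 0. Mcm6, Rrm2, Tyms and Dna2 are low in both H/R groups, Gins3 steps down again in LITAF cells, Fen1 overlaps between LITAF cells and either other group, and Rrm1 and Pola1 have the widest spread between libraries.

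All 9 polymerase and primase genes fell in empty-vector cells, with log2 changes of -0.66 to -2.83. Pole, the catalytic subunit of the leading-strand polymerase epsilon, was measured at 68.0, 63.4, 69.9 and 65.7 CPM in LITAF cells, 68.6, 66.7, 65.7 and 68.4 CPM in empty-vector cells and 438, 551, 428 and 504 CPM in normoxic cells. Both H/R groups overlapped, far below the normoxic libraries, with a 7.13-fold fall in empty-vector cells (log2 -2.83 ± 0.10, edgeR adjusted p = 3.14e-12). Pole2, the second subunit of that enzyme, had 4.72, 5.24, 6.78 and 5.24 CPM in LITAF cells, 6.23, 7.53, 5.60 and 6.96 CPM in empty-vector cells and 23.0, 38.9, 22.8 and 24.2 CPM in normoxic cells (log2 -2.05 ± 0.18, edgeR adjusted p = 6.51e-08 for empty-vector against normoxic cells). The genes of polymerase delta, which extends the lagging strand, fell less, with Pold1 at log2 -1.33 ± 0.14, Pold2 at log2 -0.66 ± 0.13 and Pold3 at log2 -0.74 ± 0.13. The primase genes Prim1 and Prim2 were 2.76-fold and 2.0-fold lower.

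Pola1, the catalytic subunit of the priming polymerase alpha, was at 65.8, 25.2, 48.7 and 37.7 CPM in LITAF cells, 65.9, 62.3, 74.3 and 59.0 CPM in empty-vector cells and 279.5, 241, 241 and 155 CPM in normoxic cells. It fell 3.51-fold in empty-vector cells (log2 -1.81 ± 0.23, edgeR adjusted p = 3.90e-06). LITAF library 1 lay within the empty-vector range and the other 3 LITAF libraries lay below it. The change of LITAF against empty-vector cells was log2 -0.56 ± 0.23, edgeR adjusted p = 0.178, which does not pass. Without LITAF library 1 it was log2 -0.80 (edgeR adjusted p = 0.0187), and without LITAF library 2 it was log2 -0.37 (edgeR adjusted p = 0.350). Over the 15 other fits the adjusted p ran from 0.0187 to 0.387 by edgeR or DESeq2. Its partner subunit gene Pola2 fell 3.98-fold in empty-vector cells.

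The clamp and clamp loader genes all fell in empty-vector cells, with log2 changes of -0.42 to -2.04. Pcna, the sliding clamp, was at 182, 165, 185 and 177 CPM in LITAF cells, 212, 219, 207 and 186 CPM in empty-vector cells and 510.4, 413, 396 and 356 CPM in normoxic cells, with no overlap between any groups (log2 -1.02 ± 0.11, edgeR adjusted p = 6.09e-07 for empty-vector against normoxic cells). Rfc5, a small subunit of the loader, had 54.1, 70.5, 60.2 and 61.5 CPM in LITAF cells, 63.9, 71.9, 63.9 and 66.4 CPM in empty-vector cells and 249, 301, 249 and 295 CPM in normoxic cells, and was 4.11-fold lower in empty-vector cells (log2 -2.04 ± 0.11, edgeR adjusted p = 1.68e-10). Rfc5 is also part of alternative clamp loaders. Rfc4 changed less, at 53.8, 61.1, 60 and 60.8 CPM in LITAF cells, 64.9, 73.9, 69.6 and 64.3 CPM in empty-vector cells and 89.5, 88.0, 103 and 85.3 CPM in normoxic cells (log2 -0.42 ± 0.10, edgeR adjusted p = 0.00114 for empty-vector against normoxic cells). Its LITAF libraries were all below the empty-vector libraries (log2 -0.21 ± 0.10, edgeR adjusted p = 0.237). Rfc2 and Rfc3 were 1.98-fold and 1.68-fold lower. Rfc1, the large subunit, fell (log2 -0.48 ± 0.16, edgeR adjusted p = 0.0139) with overlap between empty-vector and normoxic cells, and its call was lost without normoxic library 3 (log2 -0.31, edgeR adjusted p = 0.0653).

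Among the genes for Okazaki fragments and single-stranded DNA, 4 of 5 fell, and the 2 nucleases stood at opposite ends. Dna2 (ENSRNOG00000071263), a nuclease and helicase that trims long flaps and resects broken ends, was at 6.99, 7.05, 9.57 and 8.06 CPM in LITAF cells, 9.69, 8.67, 9.38 and 9.14 CPM in empty-vector cells and 161, 171, 146 and 125 CPM in normoxic cells. This was the largest change of any member, a 16.3-fold fall in empty-vector cells (log2 -4.03 ± 0.14, edgeR adjusted p = 2.14e-12). Fen1, the flap endonuclease, had 59.1, 76.3, 62.4 and 69.6 CPM in LITAF cells, 76.7, 78.6, 71.7 and 75.1 CPM in empty-vector cells and 69.0, 67.4, 67.8 and 58.5 CPM in normoxic cells. Every empty-vector library was above every normoxic library, and the change did not pass (log2 0.20 ± 0.10, edgeR adjusted p = 0.0939). With upper-quartile scaling or library totals alone Fen1 rose, at log2 0.32 and 0.33 (edgeR adjusted p = 0.0193 and 0.00804). Those scalings also moved the median of all genes tested to log2 0.12 and 0.13.

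Lig1, the ligase that seals the fragments, was at 70.3, 84.4, 78.4 and 76.8 CPM in LITAF cells, 87.4, 87.9, 83.9 and 89.5 CPM in empty-vector cells and 192, 271, 194 and 322 CPM in normoxic cells, a 2.81-fold fall in empty-vector cells (log2 -1.49 ± 0.15, edgeR adjusted p = 1.94e-07). Rpa2, of the complex that coats single-stranded DNA, was at 36.7, 41.3, 41.5 and 39.5 CPM in LITAF cells, 45.5, 52.0, 46.1 and 47.1 CPM in empty-vector cells and 121, 96.1, 95.1 and 115 CPM in normoxic cells. The 3 groups did not overlap, and the fall in empty-vector cells was 2.24-fold (log2 -1.16 ± 0.11, edgeR adjusted p = 7.99e-08), while LITAF against empty-vector cells did not pass (log2 -0.26 ± 0.11, edgeR adjusted p = 0.175). Rpa1, the large subunit of the same complex, fell 1.63-fold (log2 -0.70 ± 0.11, edgeR adjusted p = 2.24e-05).

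All 5 dNTP synthesis genes fell in empty-vector cells, and their summed level was 531, 665, 633 and 631 CPM in LITAF cells, 788, 670.1, 694 and 759 CPM in empty-vector cells and 4758, 4755, 5306 and 4979 CPM in normoxic cells. Rrm2 (ENSRNOG00000054286), the regulatory subunit of ribonucleotide reductase, was measured at 225, 279, 272 and 278 CPM in LITAF cells, 352, 341, 326 and 312 CPM in empty-vector cells and 2954, 3063, 3730.3 and 2874 CPM in normoxic cells. It was 9.48-fold lower in empty-vector than in normoxic cells (log2 -3.25 ± 0.11, edgeR adjusted p = 2.62e-12), and all LITAF libraries were below all empty-vector libraries (log2 -0.34 ± 0.11, edgeR adjusted p = 0.0793). Tyms (ENSRNOG00000037225), which makes thymidylate, had 12.6, 10.9, 13.5 and 13.9 CPM in LITAF cells, 15.8, 16.6, 15.5 and 13.7 CPM in empty-vector cells and 263, 220.3, 229 and 160.4 CPM in normoxic cells, a 14.1-fold fall (log2 -3.82 ± 0.15, edgeR adjusted p = 5.52e-12). Tk1, which salvages thymidine, and Dut, which removes dUTP, were 4.44-fold and 2.66-fold lower in empty-vector cells.

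Rrm1, the catalytic subunit of ribonucleotide reductase, was at 123, 151, 146 and 135 CPM in LITAF cells, 192, 82.6, 138 and 218 CPM in empty-vector cells and 725, 367, 559 and 1096 CPM in normoxic cells. Libraries 2 and 4 were the lowest and the highest in both the empty-vector and the normoxic group, and the LITAF libraries lay close together. Its coefficient of variation was 8.98% in LITAF cells, 38.2% in empty-vector cells and 45.1% in normoxic cells, and in empty-vector cells no other member exceeded 15%. Rrm1 still fell in empty-vector cells, 4.36-fold (log2 -2.12 ± 0.30, edgeR adjusted p = 1.09e-05), and every empty-vector library was below every normoxic library.

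**Figure D4:**
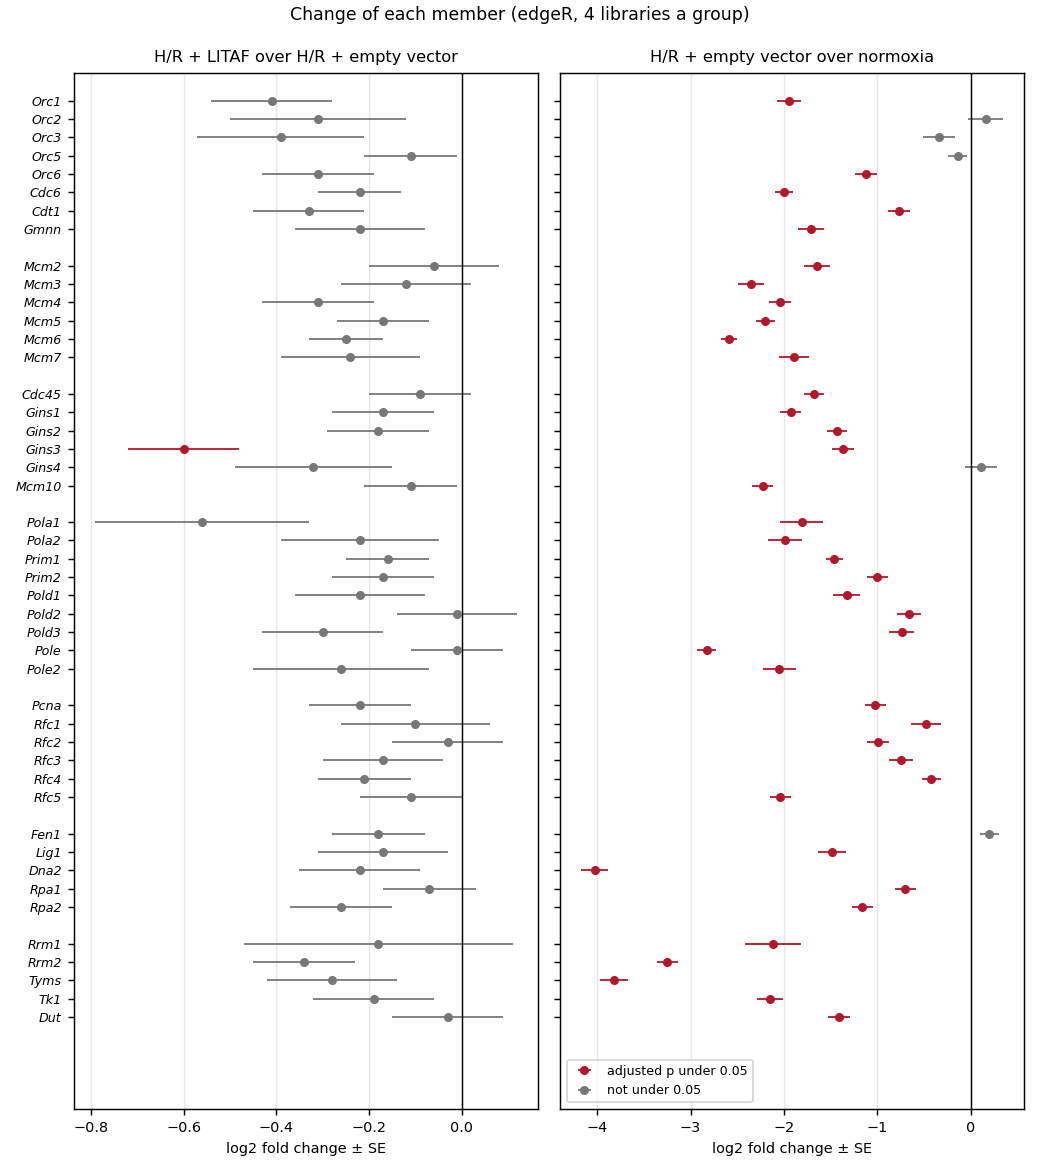
Log2 fold change ± SE of each member for LITAF over empty-vector cells (left) and empty-vector over normoxic cells (right), from edgeR with 4 libraries a group; the horizontal scales differ. Red marks an adjusted p under 0.05: 1 member, Gins3, on the left and 40 on the right.

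The comparison of LITAF with empty-vector cells addresses the aim of the series, since both groups carried a vector and went through H/R. Of the 45 members, Gins3 fell, none rose and 44 did not pass. This 2.22% stands beside 1.15% of all genes tested that were called lower and 3.73% called higher. All 45 estimates were below 0, where 51.8% of all genes tested were, with a median of log2 -0.21 for members and log2 -0.01 for all genes. Without empty-vector library 4 the members below 0 were 41, and without LITAF library 1 they were 40, with a member median of log2 -0.13. In 15 members (33.3%) every LITAF library was below every empty-vector library, beside 8.30% of all genes tested. At an unadjusted p under 0.05, 13 members were lower (28.9%, beside 8.76% of all genes tested) and none was higher, beside 11.3%. These counts describe the list, which was chosen with such results known. By role the medians were log2 -0.31 for licensing, -0.21 for MCM, -0.17 for helicase activation, -0.22 for polymerases, -0.14 for clamp and loader, -0.18 for Okazaki genes and -0.19 for dNTP synthesis.

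When LITAF and empty-vector libraries were fitted without the normoxic ones, 7 of the 45 members were called lower in LITAF cells. This stands beside 322 of 11226 genes tested (2.87%). The added members were Orc1, Orc6, Mcm6, Gins4, Pold3 and Rrm2, at log2 -0.25 to -0.41. DESeq2 called 3 of 45, namely Gins3, Mcm6 and Rrm2, beside 271 of 11586 genes (2.34%). Without LITAF library 1, 3 of 45 were called, namely Gins3, Orc1 and Pola1, beside 593 of 11515 genes (5.15%). Over all genes tested, 131 fell and 425 rose with TMM, 194 and 385 with upper-quartile scaling, 205 and 320 with library totals alone, and 593 and 692 without LITAF library 1.

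The LITAF libraries differed from each other in a way that crosses the members. Library 1 was the lowest of the 4 in 29 members and the highest in 8, while library 2 was the lowest in 11 and the highest in 22. In 7 members, Orc1, Orc2, Orc3, Mcm4, Mcm6, Pola1 and Rfc1, library 1 was the highest and library 2 the lowest. Mcm4 was at 217, 155, 195 and 176 CPM in LITAF cells, against 237, 232, 232 and 218 CPM in empty-vector cells. Mcm7, which is in the same ring, ran the other way at 134, 199.8, 171 and 187 CPM in LITAF cells, against 209, 218, 185 and 202 CPM in empty-vector cells. Genes outside the members ran both ways as well. In LITAF libraries 1 to 4, Top1 was at 116, 49.7, 85.9 and 72.4 CPM and Timeless at 60.3, 71.5, 67.6 and 70.0 CPM. This is a description of 4 libraries with no test.

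**Figure D5:**
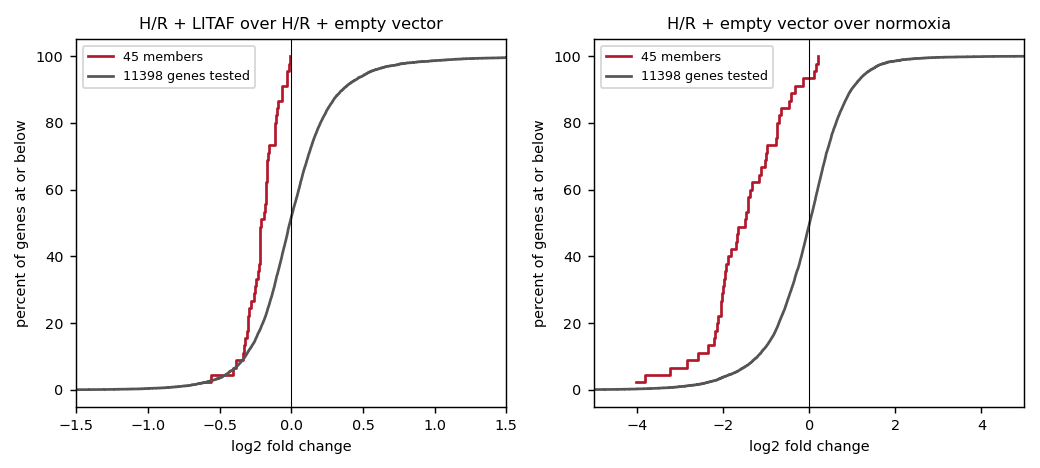
Percent of genes at or below each log2 fold change for the 45 members (red) and the 11398 genes tested (grey), for LITAF over empty-vector cells (left) and empty-vector over normoxic cells (right); the horizontal scales differ. The red curve reaches 100% at 0 on the left, with a median of -0.21, and has a median of -1.49 on the right.

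Set directly against normoxic cells, LITAF cells had 42 of 45 members lower and none higher. These 93.3% stand beside 32.6% of all genes tested called lower and 32.0% called higher. In 41 members (91.1%, beside 25.7%) every LITAF library was below every normoxic library. A fall of log2 2 or more was called in 19 members (42.2%, beside 3.79%), and the median was log2 -1.71, or 30.5% of the normoxic level. The 3 that did not pass were Orc2 (log2 -0.14 ± 0.19), Gins4 (log2 -0.21 ± 0.17) and Fen1 (log2 0.03 ± 0.10). Orc3 fell (log2 -0.72 ± 0.17, edgeR adjusted p = 0.00176), as did Orc5 (log2 -0.26 ± 0.10, edgeR adjusted p = 0.0329). The Orc5 call was lost in 10 of 15 other fits. This comparison shares its LITAF libraries with the one above and its normoxic libraries with the comparison of empty-vector and normoxic cells. The 3 comparisons are therefore not independent. Side by side, Dna2 stood at log2 -4.25 ± 0.14 in LITAF and -4.03 ± 0.14 in empty-vector cells against normoxic cells, Tyms at -4.10 ± 0.15 and -3.82 ± 0.15, Rrm2 at -3.58 ± 0.12 and -3.25 ± 0.11, and Gins3 at -1.98 ± 0.12 and -1.37 ± 0.12.

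Other genes of the same pathways were read from lists that were set with earlier results of these data known. The shares to set beside their counts in empty-vector against normoxic cells are the 31.8% of all genes tested called lower and the 31.8% called higher. Of 28 further replisome and fork genes, 19 fell (67.9%) and 3 rose (10.7%) in empty-vector against normoxic cells (median log2 -1.32), and none passed between LITAF and empty-vector cells. Clspn, which carries the replication checkpoint signal, fell (log2 -4.00 ± 0.14, edgeR adjusted p = 2.92e-12), as did the fork protection gene Timeless (log2 -2.59 ± 0.10) and the replisome scaffold gene Wdhd1 (log2 -2.74 ± 0.14). The 3 that rose, named after their values were seen, were the accessory polymerase subunits Pold4 (log2 0.97 ± 0.16) and Pole4 (log2 0.59 ± 0.10) and the alternative clamp loader subunit Chtf8 (log2 1.34 ± 0.12). Dscc1, Ssbp1 and Pold4 had the smallest p between LITAF and empty-vector cells, at log2 -0.36 ± 0.12, -0.39 ± 0.13 and 0.37 ± 0.15. Ssbp1 codes for the mitochondrial single-strand DNA-binding protein.

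Of 19 further dNTP and pyrimidine genes, 9 fell (47.4%) and 4 rose (21.1%) in empty-vector cells (median log2 -0.28), and none passed between LITAF and empty-vector cells. The deoxycytidine kinase gene Dck fell (log2 -2.13 ± 0.12, edgeR adjusted p = 1.83e-10), as did the folate enzyme gene Mthfd1 (log2 -1.79 ± 0.09) and the deoxycytidylate deaminase gene Dctd (log2 -1.89 ± 0.13). Those that rose, named after their values were seen, were the mitochondrial folate enzymes Mthfd2 (log2 1.08 ± 0.12) and Shmt2 (log2 0.79 ± 0.14), the mitochondrial thymidine kinase Tk2 (log2 0.75 ± 0.14) and the nucleoside diphosphate kinase Nme2 (log2 1.27 ± 0.11). In purine synthesis 4 of 14 genes fell (28.6%) and 5 rose (35.7%) in empty-vector cells, with a median of log2 -0.04. Both shares are near the 31.8% of all genes tested called in each direction. Impdh2, the inosine monophosphate dehydrogenase of proliferating cells, rose (log2 1.00 ± 0.10, edgeR adjusted p = 3.92e-07), while Gart (log2 -0.77 ± 0.11) and Prps2 (log2 -1.39 ± 0.19) fell. No purine gene passed between LITAF and empty-vector cells, the smallest p being that of Hprt1 (log2 -0.38 ± 0.11, edgeR adjusted p = 0.0519).

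Of 12 E2F, DP and pocket protein genes tested, 10 fell in empty-vector cells (83.3%, beside 31.8% of all genes tested) and none rose (median log2 -1.31). E2f8, an atypical repressor E2F, fell (log2 -3.80 ± 0.14, edgeR adjusted p = 4.05e-12), as did the activator E2f2 (log2 -2.27 ± 0.13) and the partner gene Tfdp1 (log2 -1.57 ± 0.11). E2f4 and Rb1, which did not pass, stood at log2 -0.04 ± 0.10 and 0.37 ± 0.17. None of the 12 passed between LITAF and empty-vector cells. E2f1 was left out of the tests because the table holds it on 2 rows with different normoxic values. Its level was 35.0, 40.4, 37.0 and 40 CPM in LITAF cells and 33.7, 34.0, 29.8 and 36.7 CPM in empty-vector cells, against 105, 84.6, 94.7 and 132 CPM in normoxic cells on 1 row and 107, 121, 96.5 and 131 CPM on the other. Both rows place the H/R libraries below the normoxic ones. Of 10 genes of S phase chromatin, 8 fell in empty-vector cells (80%, beside the same 31.8%) and none rose, among them the histone chaperone gene Asf1b (log2 -2.30 ± 0.11, edgeR adjusted p = 3.88e-11) and the maintenance methyltransferase gene Dnmt1 (log2 -2.02 ± 0.13). Of the 83 genes tested in these lists, 1 was called lower in LITAF against empty-vector cells (1.2%, beside 1.15% of all genes tested), a share at the background. This was Nasp, a histone H1 and H3 chaperone, at 88.5, 76.7, 87.4 and 79.6 CPM in LITAF cells and 114, 109.9, 107 and 93.6 CPM in empty-vector cells (log2 -0.35 ± 0.10, edgeR adjusted p = 0.0488). Its call was lost in 7 of 15 other fits, with adjusted p up to 0.163 by edgeR or DESeq2.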

How the data were processed

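Polyadenylated RNA from 12 H9C2 libraries was sequenced as paired ends, per the labels' protocols. The authors deposited 1 table of gene-level read counts, raw per the file headers. Part of the deposited values are not whole numbers, so they were taken to be estimated counts (not stated by the authors) and were rounded. DESeq2 and edgeR are named in the submitters' processing notes without a role; no source used here gives the aligner, genome build or annotation. Of 16204 rows, 258 share a gene ID; 56 IDs with identical rows were kept once and 72 IDs whose rows differ were left out, all 72 identical in the H/R columns. No member is among these IDs.

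Counts were scaled by TMM and tested with edgeR 4.0.16 (filterByExpr, robust quasi-likelihood F-test, limma 3.58.1, R 4.3.3) in 1 fit of all 12 libraries, with Benjamini-Hochberg adjustment over 11398 genes and a threshold of 0.05. The coefficient of biological variation was 14.5%. CPM values of single genes carry counting error that is small at 16.9 to 20.7 M reads a library. DESeq2 1.42.0, other scalings, no filter, fits of 2 groups, replicate blocks, a threshold of 0.01 and leaving out each library were alternatives.

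Whether library numbers pair the groups was read from the correlation of deviations from the group means over all tested genes. Same-numbered libraries correlated by 0.30 to 0.57 between empty-vector and normoxic cells, where other numbers gave -0.27 to -0.03. This pairing entered only the alternative fits with a replicate block. The main fit had no block, so its SE and p-values do not use the pairing. Between LITAF and empty-vector cells the correlation was 0.05 to 0.20 and between LITAF and normoxic cells 0.05 to 0.10, which does not reach 0.1 in every pair. Over the 45 members alone it was 0.13 to 0.41 between LITAF and empty-vector cells, where other numbers gave -0.73 to 0.74.

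The members, gene lists and tests were chosen with earlier results of these data known. Values in every library are given for the 2 members of each role group with the largest change of empty-vector against normoxic cells. They are also given for the member of each role group with the smallest p of LITAF against empty-vector cells. Members called or not called as stated, and Rrm2, Tyms, Mcm6, Mcm5, Pcna, Cdt1 and Gmnn, have them as well. Mcm4, Mcm7 and Rrm1 were added after their values were seen. Promoter words were searched in RefSeq promoters of GRCr8.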

Additional observations from a re-analysis of the deposited data

Results flagged for a closer look

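In 8 of 135 groups of 4 libraries, 1 library stood further from the others than expected of a group of that size (Dixon's test at the 95% level), and chance alone flags about 1 in 20 groups. Of these, 3 were low values in LITAF library 1. Rrm2 was at 225 CPM there, against 272 to 279 CPM in the other LITAF libraries. Prim1 was at 95.0 CPM, against 108 to 110.4 CPM, and Rfc4 at 53.8 CPM, against 60 to 61.1 CPM. The other 5 were normoxic libraries. In library 2, Mcm5 was low at 1256 CPM (1322 to 1334 CPM in the others) and Pole2 was high at 38.9 CPM (22.8 to 24.2 CPM). In library 3, Cdc45 was low at 104 CPM (134 to 137 CPM). In library 4, Cdt1 was high at 208 CPM (159 to 163 CPM) and Fen1 was low at 58.5 CPM (67.4 to 69.0 CPM). None of the empty-vector libraries was set apart in any member.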

How the results depend on the processing

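Members called lower in LITAF against empty-vector cells were 1 of 45 in the fit of all libraries, beside 131 of all 11398 genes tested. With library totals alone they were 2 (Gins3 and Rrm2), beside 205 of 11398. DESeq2 gave 3, beside 271 of 11586 genes, and the fit of the 2 groups alone gave 7, beside 322 of 11226. When each library was left out they were 1 to 3. With the replicate block they were 1 in all 12 libraries, beside 299 of 11398 genes. In the 2 groups alone the block gave 2 (Gins3 and Orc1), beside 273 of 11226. Called genes overall were 32 to 593 lower and 205 to 692 higher when a library was left out. The cause of these differences was not tested. In empty-vector against normoxic cells 39 to 41 members were lower under every alternative; 1 was higher with upper-quartile scaling and 1 with library totals alone, Fen1 in both. Rfc1 was lost with library totals (log2 -0.36, edgeR adjusted p = 0.0627) and at a threshold of 0.01, and Orc3 was gained without normoxic library 4 (log2 -0.44, edgeR adjusted p = 0.0338). LITAF against normoxic cells gave 41 or 42 lower members. Gins4 was gained there without normoxic library 1 (log2 -0.36, edgeR adjusted p = 0.0283). Apart from Orc3, the replicate block changed no call of empty-vector against normoxic cells.

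Some estimates near 0 changed sign when 1 library was left out. In LITAF against empty-vector cells the ranges over left-out libraries were log2 -0.12 to 0.03 for Mcm2, -0.09 to 0.08 for Pold2, -0.04 to 0.01 for Pole, -0.09 to 0.07 for Rfc2, -0.12 to 0.01 for Rpa1, -0.39 to 0.03 for Rrm1 and -0.08 to 0.06 for Dut. The libraries whose omission turned a sign were LITAF library 1 (Mcm2, Pold2, Rfc2, Rpa1, Dut), 2 (Pole) and 3 (Pold2) and empty-vector library 2 (Pold2) and 4 (Mcm2, Pold2, Pole, Rrm1). For empty-vector against normoxic cells Gins4 ranged over log2 -0.04 to 0.32, below 0 without normoxic library 1. For LITAF against normoxic cells Fen1 ranged over log2 -0.05 to 0.11, below 0 without normoxic library 4 or LITAF library 2. Members under 10 CPM in the H/R groups, such as Dna2, carry the widest counting error.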

Other observations

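Within a library, the ratio of 2 members' CPM does not depend on scaling between libraries. The following 3 ratios were chosen after their values were seen and have no test. Cdt1 over Gmnn, the loader over its inhibitor, was 3.42, 3.45, 3.30 and 3.11 in LITAF cells, 3.76, 3.25, 3.14 and 4.21 in empty-vector cells and 2.32, 1.37, 1.74 and 2.25 in normoxic cells. Every H/R library was above every normoxic library. Mcm6 over Mcm2, 2 subunits of 1 ring, was 2.67, 1.93, 2.22 and 2.11 in LITAF cells, 2.58, 2.53, 2.68 and 2.27 in empty-vector cells and 3.94, 4.32, 5.39 and 6.09 in normoxic cells. Pole over Pold1, the catalytic subunits of the leading-strand and lagging-strand polymerases, was 2.03, 1.40, 1.86 and 1.53 in LITAF cells, 1.60, 1.40, 1.60 and 1.26 in empty-vector cells and 4.69, 4.66, 3.95 and 3.47 in normoxic cells. In both of these ratios every H/R library was below every normoxic library. These ratios are of read counts not corrected for transcript length, so their size has no meaning apart from the comparison between libraries.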
